A study of Mus musculus with 6 samples.

Results

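Iron is imported into cells bound to transferrin, stored inside ferritin shells, released through an exporter and freed from heme when heme is broken down, and this report covers 10 mouse genes of that cycle in muscle cells with lowered DJ-1. They were listed by name as TFRC, FTH1, FTL1, SLC40A1, SLC11A2, HMOX1, HMOX2, BLVRB, ACO1 and IREB2, and every array probe annotated with one of these symbols was taken as a separate measurement. The 10 genes, of 30854 gene symbols on the array, were read by 17 of its 45281 probes. Mouse C2C12 myoblasts, an immortalised muscle precursor line, were transfected with 60 nM of either a scramble siRNA (Scramble, n = 3) or an siRNA against DJ-1 (siDJ-1, n = 3), moved to differentiation medium 48 h later and harvested as myotubes on day 4 of differentiation. The groups shared line, dose, medium and time, and each group rests on 1 kind of siRNA. RNA of the 6 samples was hybridised to one Illumina bead array chip that reads transcripts with short oligonucleotide probes, and the probe signal, in arbitrary intensity units, was the measurement. The labels do not say whether replicates came from separate cultures, so p-values measure only the spread between these samples, which may be technical.

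In most cells, transferrin receptor takes up iron-loaded transferrin, a divalent metal transporter moves the iron out of the endosome, ferritin heavy and light chains store what is not used, and ferroportin exports it. A pair of iron regulatory proteins bind stem-loops in the transcripts of these genes when iron is scarce, which stabilises the transferrin receptor message and holds back translation of the ferritin messages. Heme oxygenases open the heme ring and free its iron, and biliverdin reductases finish the pathway to bilirubin. Muscle is rich in heme and iron because of myoglobin and the respiratory chain, and DJ-1 is a small protein linked to the defence against oxidants.

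The Park7 probe, which reads the DJ-1 transcript, had signals of 12019.5, 10900.4 and 12251 on the Scramble arrays against 5935, 6586 and 4234 on the siDJ-1 arrays. All siDJ-1 arrays lay below all Scramble arrays. After background correction and quantile normalization, Park7 was at 44.7% of its Scramble level (95% confidence interval 35.7 to 55.9%; log2 fold change -1.16 ± 0.14, SE, limma, adjusted p = 0.00344), so the labels of both groups held for the targeted gene. Of the 14 myotube marker genes, all had at least 1 probe detected, and 24 of their 31 probes were detected on 3 or more arrays.

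A probe was tested when its detection p, the chance of such a signal among negative control beads, was under 0.05 on at least 3 of the 6 arrays, which kept 17890 probes. Of these, 5387 passed an adjusted p of 0.05, a background of 30.1% in either direction, 16.5% higher and 13.6% lower in siDJ-1. Of the 17 iron and heme handling probes, 16 were tested, covering all 10 genes. 4 probes of 3 genes (FTL1, HMOX1 and BLVRB) were called higher and both probes of 1 gene (TFRC) lower, 37.5% of those tested against the background of 30.1%. The median log2 fold change of the 16 probes was 0.07, and that of all tested probes was 0.05. Groups did not overlap for 8 of the 16 probes, and for 48.5% of all tested probes. The 8 include ACO1 and SLC11A2 ILMN_2578829, whose unnormalized groups overlapped, and the second was detected on siDJ-1 arrays only. The count of called probes is near the background and is no result about the genes as a set, so they are described gene by gene.

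**Figure D1:**
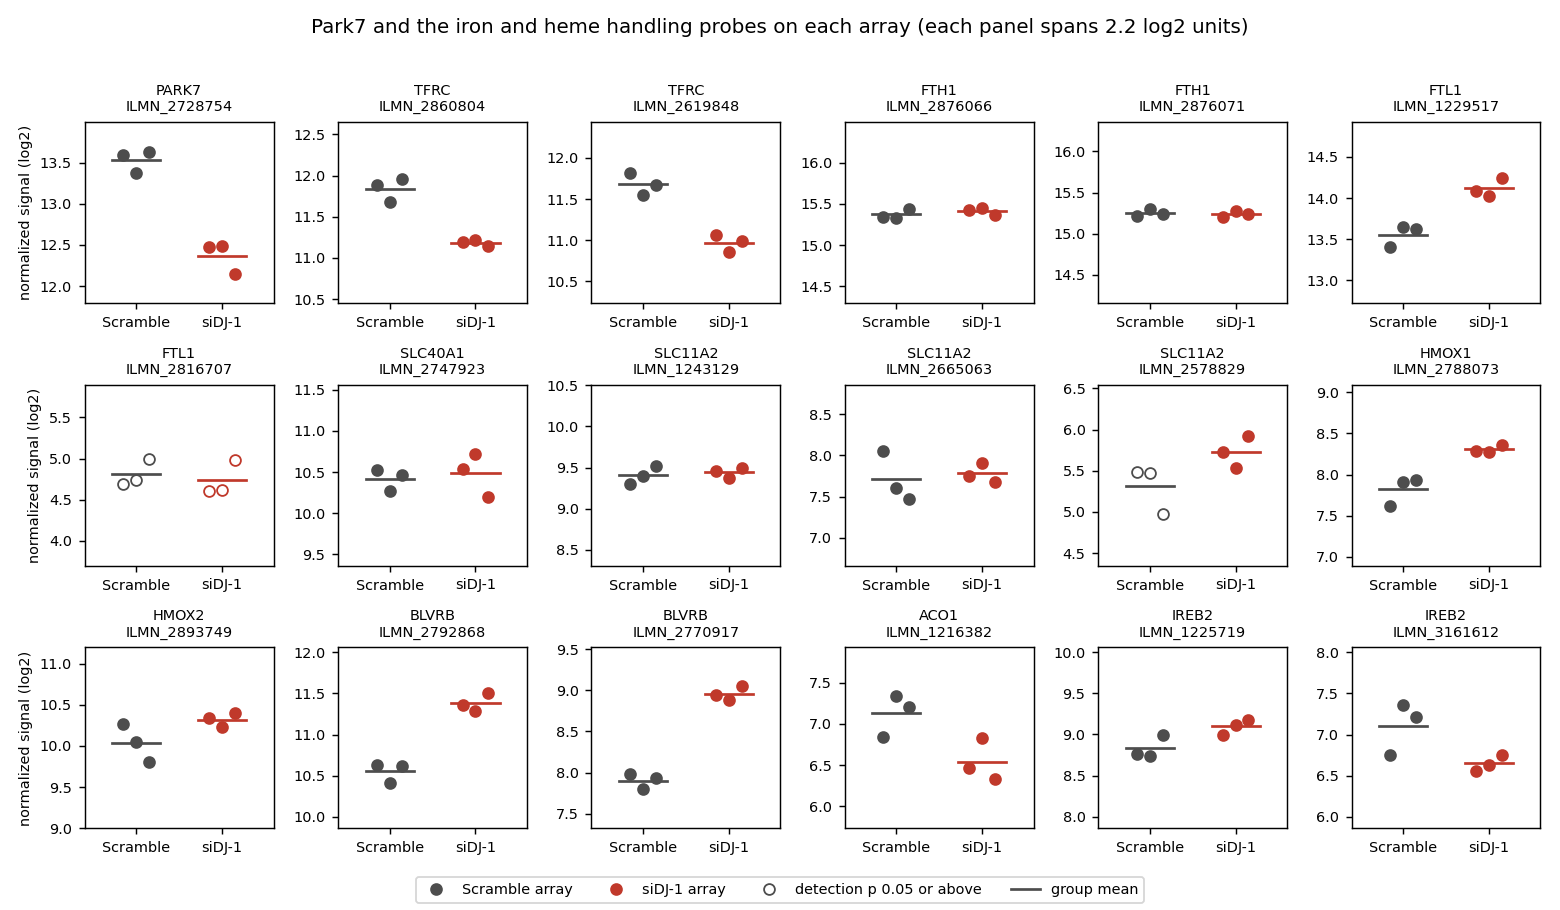
Normalized log2 signal (vertical axis) of the Park7 probe and the 17 iron and heme handling probes on the 3 Scramble (grey) and 3 siDJ-1 (red) arrays; lines are group means, open circles mark a detection p of 0.05 or above, and every panel spans the same range. Both TFRC probes lie lower on all siDJ-1 arrays, both BLVRB probes and FTL1 ILMN_1229517 lie higher, and both FTH1 probes overlap.

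Iron uptake was represented by TFRC, the transferrin receptor, which fell on both of its probes. Probe ILMN_2860804 gave signals of 3890.2, 3451 and 3974 on the Scramble arrays against 2498, 2793 and 2139.8 on the siDJ-1 arrays. The highest siDJ-1 array was below the lowest Scramble array. Its level in siDJ-1 was 63.4% of that in Scramble (95% confidence interval 53.0 to 75.7%), a log2 fold change of -0.66 ± 0.11 (SE, n = 3 per group, limma, adjusted p = 0.00728). Probe ILMN_2619848 gave 3720.2, 3128 and 3249.8 on the Scramble arrays against 2287, 2194 and 1935 on the siDJ-1 arrays, again with no overlap. It stood at 61.2% of the Scramble level (50.7 to 73.8%), a log2 fold change of -0.71 ± 0.11 (limma, adjusted p = 0.00692). For a single probe, an exact two-sided permutation test of 3 arrays against 3 cannot give a p below 0.1. In RNA from whole cultures, fewer cells that express a gene and less of its RNA per cell cannot be told apart.

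SLC11A2, the divalent metal transporter that passes endosomal iron to the cytosol, had 3 probes and none was called. The probe ILMN_1243129 gave between 746 and 861 on all 6 arrays (log2 fold change 0.04 ± 0.10) and ILMN_2665063 between 300 and 417 (0.07 ± 0.17). On both, the groups overlapped. The probe ILMN_2578829 was not well above background on any Scramble array (detection p of 0.0716, 0.0577 and 0.248) and was detected on all siDJ-1 arrays (0.00855, 0.0267 and 0.00534). Its unnormalized signals were 182, 185 and 149 on the Scramble arrays against 184.5, 184 and 179 on the siDJ-1 arrays, and these overlapped. The test did not pass (limma, adjusted p = 0.123), and no fold is given, since its size depends on the background step (the ratio of the unnormalized group means was 1.06).

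Ferritin, the iron store, is built from heavy and light chains. The heavy chain gene FTH1 was read by a pair of probes near the top of the array's range. Probe ILMN_2876066 gave 38358, 42968 and 40543 on the Scramble arrays against 45059, 50224 and 42013 on the siDJ-1 arrays, which was between 83.4% and 95.9% of the highest signal on the same array. Probe ILMN_2876071 gave 35010.3, 42144 and 34967 against 38834, 44997 and 38651. The groups overlapped on both. The log2 fold changes were 0.04 ± 0.09 (95% confidence interval -0.18 to 0.26, limma, adjusted p = 0.756) and -0.01 ± 0.09 (-0.23 to 0.20, adjusted p = 0.919). Quantile normalization sets values by rank, and with a 75th percentile shift in its place after the same background correction the values were 0.28 and 0.24, so the sign of the second probe turned, and neither was called. The ratios of the unnormalized group means were 1.13 and 1.09. The files hold no saturation mark, so a change hidden by the upper end of the range was not tested, and the intervals do not cover it.

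The light chain gene FTL1 rose on the 1 probe that detected it. Probe ILMN_1229517 gave 10657, 13122 and 12093 on the Scramble arrays against 18126, 18718 and 18392 on the siDJ-1 arrays. Every siDJ-1 array was above every Scramble array, by more than the spread within either group. Its level in siDJ-1 was 147% of that in Scramble (95% confidence interval 122 to 178%), a log2 fold change of 0.56 ± 0.12 (limma, adjusted p = 0.0145). The call was lost when siDJ-1 replicate 1 or replicate 3 was left out (log2 fold change 0.57, adjusted p = 0.0539, and 0.50, adjusted p = 0.0523), and over all 14 alternatives the adjusted p ran from 8.11e-05 to 0.0539. The other FTL1 probe, ILMN_2816707, was not well above background on any array, with signals between 137 and 150 and detection p between 0.215 and 0.872, and was not tested.

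SLC40A1, or ferroportin, the iron exporter of the plasma membrane, had 1 probe. It gave 1653, 1387 and 1487 on the Scramble arrays against 1629, 2008 and 1138 on the siDJ-1 arrays. The siDJ-1 arrays held both the highest and the lowest value, and the groups overlapped. The log2 fold change was 0.07 ± 0.16 (95% confidence interval -0.31 to 0.45, limma, adjusted p = 0.765).

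The iron regulatory proteins are encoded by ACO1, whose product doubles as cytosolic aconitase when it carries an iron-sulfur cluster, and by IREB2, whose product is degraded in iron-replete cells. The ACO1 probe gave 255, 311 and 270.1 on the Scramble arrays against 221, 260 and 195.5 on the siDJ-1 arrays. The unnormalized groups overlapped, since siDJ-1 replicate 2 lay above Scramble replicate 1, and the normalized groups did not. The log2 fold change was -0.59 ± 0.18 (95% confidence interval -1.02 to -0.15, limma, adjusted p = 0.0526), just short of the threshold. It passed under 6 of 14 alternatives, with adjusted p between 0.0284 and 0.156, and with no background correction its log2 fold change was -0.27 after quantile normalization and -0.26 after a 75th percentile shift.

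The IREB2 probes went opposite ways and neither was called. Probe ILMN_1225719 gave 591, 589.6 and 630.3 on the Scramble arrays against 636.5, 744.5 and 621 on the siDJ-1 arrays (log2 fold change 0.26 ± 0.11, limma, adjusted p = 0.128). Probe ILMN_3161612 gave 247, 313 and 271 against 227, 244 and 219 (-0.46 ± 0.17, adjusted p = 0.0862). The normalized groups overlapped on both. Without Scramble replicate 1 the second probe passed (log2 fold change -0.64, adjusted p = 0.0142, in a range from 0.0142 to 0.214 over 14 alternatives), and with no background correction it stood at -0.22 after quantile normalization.

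Heme degradation starts with the heme oxygenases, the inducible HMOX1 and the constitutive HMOX2. HMOX1 gave 342, 395 and 369 on the Scramble arrays against 439, 471 and 403 on the siDJ-1 arrays. The siDJ-1 arrays were all higher, with a gap between the nearest arrays of the groups that was smaller than the standard error over beads on each array, which ran from 18.96 to 23.8 units. After normalization HMOX1 was at 140% of its Scramble level (95% confidence interval 115 to 170%), a log2 fold change of 0.48 ± 0.12 (limma, adjusted p = 0.0244). The ratio of the unnormalized group means was 1.19, and with no background correction the log2 fold change was 0.32 after quantile normalization and 0.30 after a 75th percentile shift. The call was lost without siDJ-1 replicate 1, 2 or 3 (log2 fold changes 0.50, 0.50 and 0.46, adjusted p = 0.0758, 0.05515 and 0.0800) and with dim probes kept in the test (adjusted p = 0.0550), in a range from 0.0111 to 0.0800 over 14 alternatives. HMOX2 gave 1405.5, 1226 and 997 against 1432, 1487 and 1299, with overlapping groups (log2 fold change 0.28 ± 0.14, limma, adjusted p = 0.175). HMOX2 passed under 1 of 14 alternatives, the 75th percentile shift with no background correction (log2 fold change 0.28, adjusted p = 0.0478; range 0.0478 to 0.384).

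BLVRB, biliverdin reductase B, also known as flavin reductase, rose on both probes. Probe ILMN_2792868 gave 1774, 1517 and 1650 on the Scramble arrays against 2777, 2939 and 2741 on the siDJ-1 arrays. Probe ILMN_2770917 gave 403, 374 and 368 against 619, 654 and 576. On both, the gap between the groups was larger than the spread within either of them. The levels in siDJ-1 were 178% of Scramble for the first probe (95% confidence interval 148 to 215%; log2 fold change 0.83 ± 0.11, limma, adjusted p = 0.00443) and 208% for the second (175 to 246%; 1.06 ± 0.10, adjusted p = 0.00285). Without background correction the second probe changed by 0.76 after quantile normalization and by 0.74 after a 75th percentile shift, and both probes were called under all 14 alternatives. Both TFRC probes were also called under all 14.

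**Figure D2:**
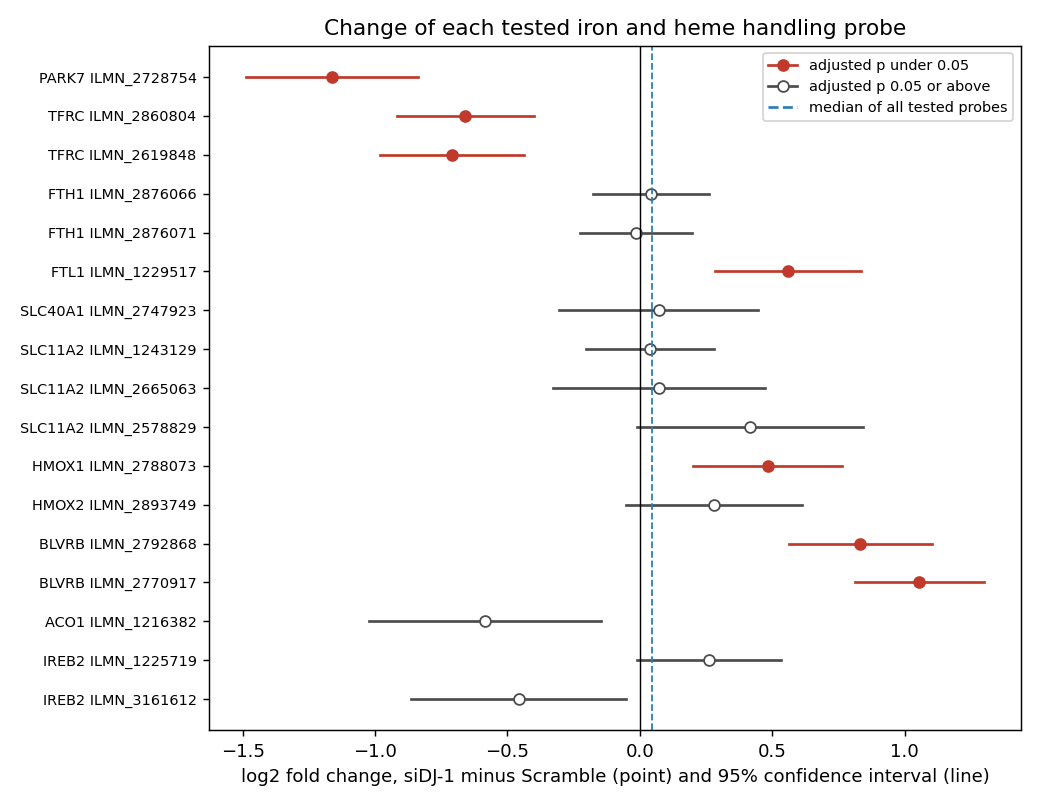
Log2 fold change, siDJ-1 minus Scramble (horizontal axis), of Park7 and the 16 tested iron and heme handling probes; points are estimates, lines 95% confidence intervals, filled red points have an adjusted p under 0.05, and the dashed line is the median of all tested probes (0.05). The 2 TFRC probes lie at -0.66 and -0.71, FTL1 at 0.56, HMOX1 at 0.48 and the 2 BLVRB probes at 0.83 and 1.06, while the SLC11A2 probe ILMN_2578829 is drawn at its fitted value although it was not well above background on any Scramble array.

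**Figure D3:**
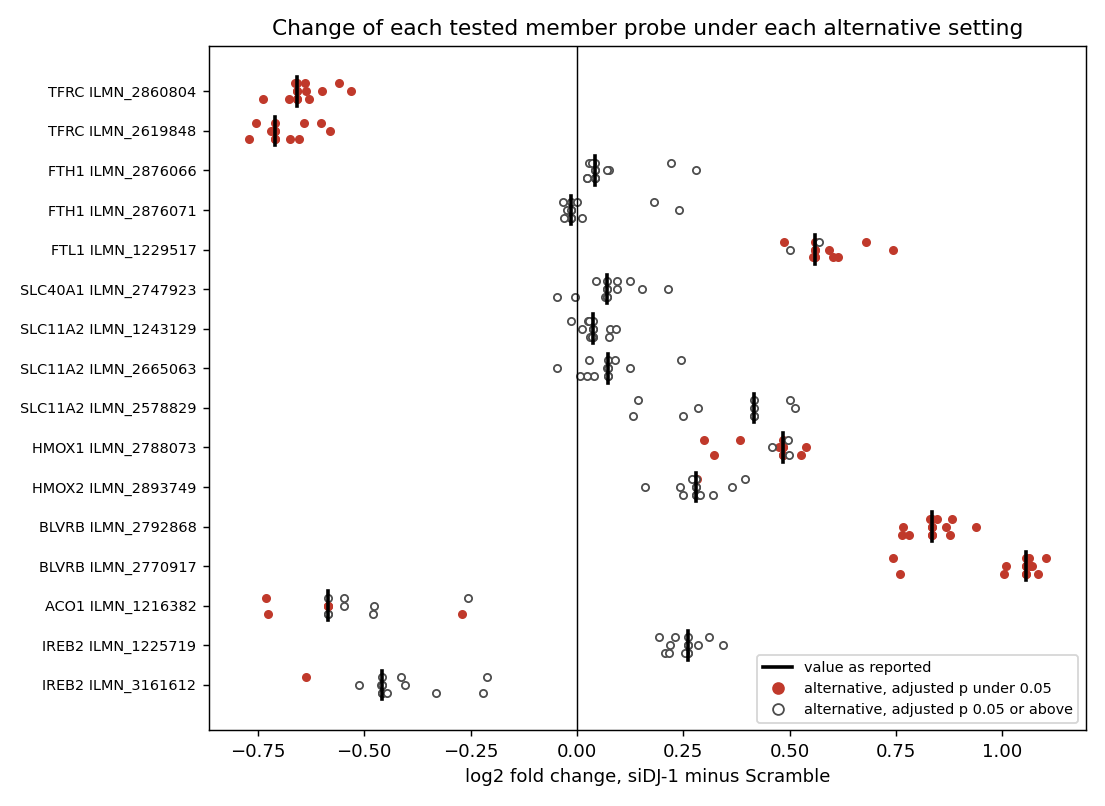
Log2 fold change, siDJ-1 minus Scramble (horizontal axis), of each tested iron and heme handling probe as reported (black bar) and under each alternative background correction, normalization, filter, test or left-out array (circles, filled red where the adjusted p was under 0.05). The TFRC and BLVRB circles are all filled, FTL1 has 2 open circles and HMOX1 has 4, and the circles of FTH1 ILMN_2876071 and SLC40A1 fall on both sides of 0.

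Upstream sequences are shown for the genes that changed on a probe and had an entry, with FTH1 for comparison with FTL1. The RefSeq table (build GRCm38.p6) held 12 promoters of 7 of the 10 genes; Slc40a1, Slc11a2 and Hmox1 were not among them. The 250 bases before the annotated start were searched on both strands for the CCAAT box, the GC box core GGGCGG, the antioxidant response element core TGACNNNGC and ACGTG, and matches are in capitals. ACGTG is 1 form of the hypoxia response element core, and its GCGTG form was not searched. Tfrc is on the + strand at chr16:32608646-32608895, Ftl1 on the - strand at chr7:45459887-45460136, Fth1 on the + strand at chr19:9982396-9982645 and Blvrb on the + strand at chr7:27447728-27447977.
Tfrc: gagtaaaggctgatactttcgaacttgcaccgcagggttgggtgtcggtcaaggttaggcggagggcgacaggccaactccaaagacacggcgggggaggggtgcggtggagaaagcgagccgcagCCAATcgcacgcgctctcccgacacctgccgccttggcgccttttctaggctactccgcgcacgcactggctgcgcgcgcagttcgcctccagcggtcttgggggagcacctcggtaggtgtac
Ftl1: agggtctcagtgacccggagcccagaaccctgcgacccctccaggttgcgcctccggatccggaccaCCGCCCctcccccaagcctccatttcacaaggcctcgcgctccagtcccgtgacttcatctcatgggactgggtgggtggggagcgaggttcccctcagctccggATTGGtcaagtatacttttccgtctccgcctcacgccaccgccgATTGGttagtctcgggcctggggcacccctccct
Fth1: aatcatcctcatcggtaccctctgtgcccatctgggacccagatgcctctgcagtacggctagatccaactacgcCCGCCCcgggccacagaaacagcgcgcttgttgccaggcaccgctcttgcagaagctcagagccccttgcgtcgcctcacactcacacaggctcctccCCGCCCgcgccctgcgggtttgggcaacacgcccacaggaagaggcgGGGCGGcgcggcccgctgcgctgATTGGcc
Blvrb: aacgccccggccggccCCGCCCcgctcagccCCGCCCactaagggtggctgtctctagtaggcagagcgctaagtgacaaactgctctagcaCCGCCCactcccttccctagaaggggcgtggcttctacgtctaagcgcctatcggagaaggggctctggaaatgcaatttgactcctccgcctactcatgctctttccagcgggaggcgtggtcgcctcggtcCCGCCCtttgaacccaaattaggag
Ftl1 held CCAAT (read as ATTGG on the other strand) 2 times and Tfrc and Fth1 1 time each. In the windows shown, the GC box core, written CCGCCC on the other strand, stood 4 times in Blvrb, 3 times in Fth1, 1 time in Ftl1 and 0 times in Tfrc. It was shared by a gene that was called and a gene that was not. A second annotated Tfrc promoter, at chr16:32608872-32609121 on the + strand, held the GC box core 1 time. The second Blvrb promoter, at chr7:27452168-27452417 on the + strand, held it 0 times. A second annotated Fth1 promoter, at chr19:9980350-9980599 on the + strand, held none of the 4 motifs. CCAAT was in 3 of the 12 promoters and in 33.8% of the 32851 promoters of this length in the table, and the GC box core was in 7 of the 12 and in 32.7%. TGACNNNGC was in none of the 12 promoters and in 10.2% of all promoters. ACGTG was in 2 of the 12 and in 16.6% of all, upstream of a second annotated start of Tfrc and of Blvrb. The 30 bases around each match are shown, for Tfrc chr16:32608882-32608911 and for Blvrb chr7:27452283-27452312, both on the + strand.
Tfrc, second start: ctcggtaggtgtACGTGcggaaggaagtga
Blvrb, second start: cttttcatctcaACGTGaactgtgtgcttt
These matches describe letters in the windows, and binding was not measured.

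The wider pathway was read through lists of other iron and heme genes, with the 10 genes left out. Of 96 tested probes of 57 gene symbols, 18 were called higher and 17 lower (36.5% called against 30.1% of all tested probes), with a median log2 fold change of -0.09. The split moved to 16 higher and 24 lower with quantile normalization and no background correction and to 17 and 26 with a trend in the prior variance. Among further uptake genes, 3 probes were tested and limma called 0 (0 before adjustment at the same threshold, and the methods' t-test also called 0), with STEAP1 at -0.28, STEAP2 at 0.24 and STEAP3 detected on 2 Scramble arrays and 1 siDJ-1 array. The methods' t-test is the unpaired test that the study names for its other measurements, since its arrays were tested with a moderated one. Among the 6 probes for iron storage and release, both called probes were of PCBP2, a chaperone that hands iron to ferritin, and both rose (log2 fold changes 0.45 ± 0.11 and 0.42 ± 0.09, adjusted p = 0.0239 and 0.0170). All 5 probes tested for iron export were of CP, ceruloplasmin, the oxidase that loads exported iron onto transferrin. They disagreed, with ILMN_2555238 called higher (0.77 ± 0.21, adjusted p = 0.0339) and the other 4 not called, at values from -0.43 to 0.06. Of 2 probes for partners of the iron regulatory proteins, limma called 0 (1 before adjustment at the same threshold, and the methods' t-test called 0). In the hepcidin and BMP axis, 8 probes were tested. NEO1, a co-receptor partner of hemojuvelin, had a probe called higher (ILMN_1215412, 0.74 ± 0.22, limma, adjusted p = 0.0457), which was detected on 2 of 3 Scramble arrays. Another NEO1 probe, ILMN_1253848, passed the filter through the Scramble arrays alone and was not well above background on any siDJ-1 array. Its call as lower in siDJ-1 (limma, adjusted p = 0.0155), counted among the 17, is given as a description with no fold. With no background correction neither of these was called. The other 2 tested NEO1 probes were detected on all 6 arrays and were not called, ILMN_2610156 at 0.07 (adjusted p = 0.638) and ILMN_2579266 at 0.45 (adjusted p = 0.0822).

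Heme degradation outside the 10 genes was represented by BLVRA and by POR, the reductase that feeds electrons to heme oxygenase. Of 4 probes tested, limma called 2, both of POR, and 1 of these calls was on a probe that passed the filter through the siDJ-1 arrays alone. Probe ILMN_1232447 rose by 0.49 ± 0.12 (adjusted p = 0.0226). Probe ILMN_2629266 (adjusted p = 0.0172) was detected on all siDJ-1 arrays and on no Scramble array, its unnormalized groups overlapped, and it was not called with a trend in the prior variance (adjusted p = 0.0916) or with quantile normalization and no background correction (0.05455), so no fold is given. The third POR probe, ILMN_2791272, was detected on all 6 arrays, stood at 0.20 ± 0.13 with overlapping groups and was not called (limma, adjusted p = 0.265). A difference between the POR probes was not tested. The BLVRA probe was detected on all 6 arrays, stood at -0.17 ± 0.10 with overlapping groups and was not called (limma, adjusted p = 0.252). In heme synthesis, 22 probes of 13 genes were tested. Limma called 5 probes of 5 genes higher and 6 probes of 3 genes lower, and the median was -0.21. The shares were 22.7% higher and 27.3% lower, against 16.5% and 13.6% of all tested probes. All 3 probes of UROS, uroporphyrinogen III synthase, fell, by 1.56 ± 0.19, 0.89 ± 0.15 and 0.88 ± 0.22 on the log2 scale (limma, adjusted p = 0.00356, 0.00850 and 0.0285). The last of these, ILMN_2545953, was detected on 2 of 3 siDJ-1 arrays. CPOX, coproporphyrinogen oxidase, was called higher (adjusted p = 0.0111) on a probe that was detected on 1 of 3 Scramble arrays, so no fold is given. UROD, uroporphyrinogen decarboxylase, rose by 0.45 ± 0.09 (adjusted p = 0.0152), and PGRMC1, a heme-binding membrane protein, by 0.43 ± 0.13 (adjusted p = 0.0430). Among 8 probes for heme transport and binding, HEBP1, a heme-binding protein, rose by 1.01 ± 0.24 (adjusted p = 0.0213) and CYGB, cytoglobin, was called lower (adjusted p = 0.0151) on a probe detected on 1 of 3 siDJ-1 arrays, with no fold given, and the median was -0.30.

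Iron-sulfur clusters are assembled first in mitochondria and then by a separate cytosolic machinery. Of 24 mitochondrial probes of 15 genes, 6 probes of 4 genes were called higher and 1 lower, with a median of 0.04. The share called was 29.2%, near the 30.1% of all tested probes. It was 25% higher and 4.17% lower, against 16.5% and 13.6%. HSCB, the co-chaperone of cluster transfer, rose on both probes (log2 fold changes 0.96 ± 0.16 and 0.89 ± 0.19, adjusted p = 0.00703 and 0.0166). FDXR, ferredoxin reductase, rose by 0.80 ± 0.13 on ILMN_2984012 (adjusted p = 0.00693). BOLA3, a late assembly factor, fell by 0.79 ± 0.12 (adjusted p = 0.00586). In the cytosolic list, 14 probes of 8 gene symbols were tested, with MMS19 and MMS19L counted apart. Limma called 0 higher (0 before adjustment at the same threshold, and the methods' t-test also called 0) and 8 probes of 4 genes lower. The share called lower was 57.1%, against 13.6% of all tested probes, and the median was -0.57. Of the 14 probes, the methods' t-test called 5 lower. CIAPIN1, an electron carrier of this machinery, fell by 0.78 ± 0.11 on ILMN_1232237 (adjusted p = 0.00442), NUBP2, a scaffold subunit, by 0.75 ± 0.13 on ILMN_2925570 (adjusted p = 0.00869) and NDOR1, the reductase partner of CIAPIN1, by 0.71 ± 0.16 on ILMN_1226135 (adjusted p = 0.0186). The NDOR1 probe ILMN_1226703 was not called, at -0.48 (adjusted p = 0.0641). The other CIAPIN1 probe, ILMN_2674095, stood at -0.03 (adjusted p = 0.828).

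**Figure D4:**
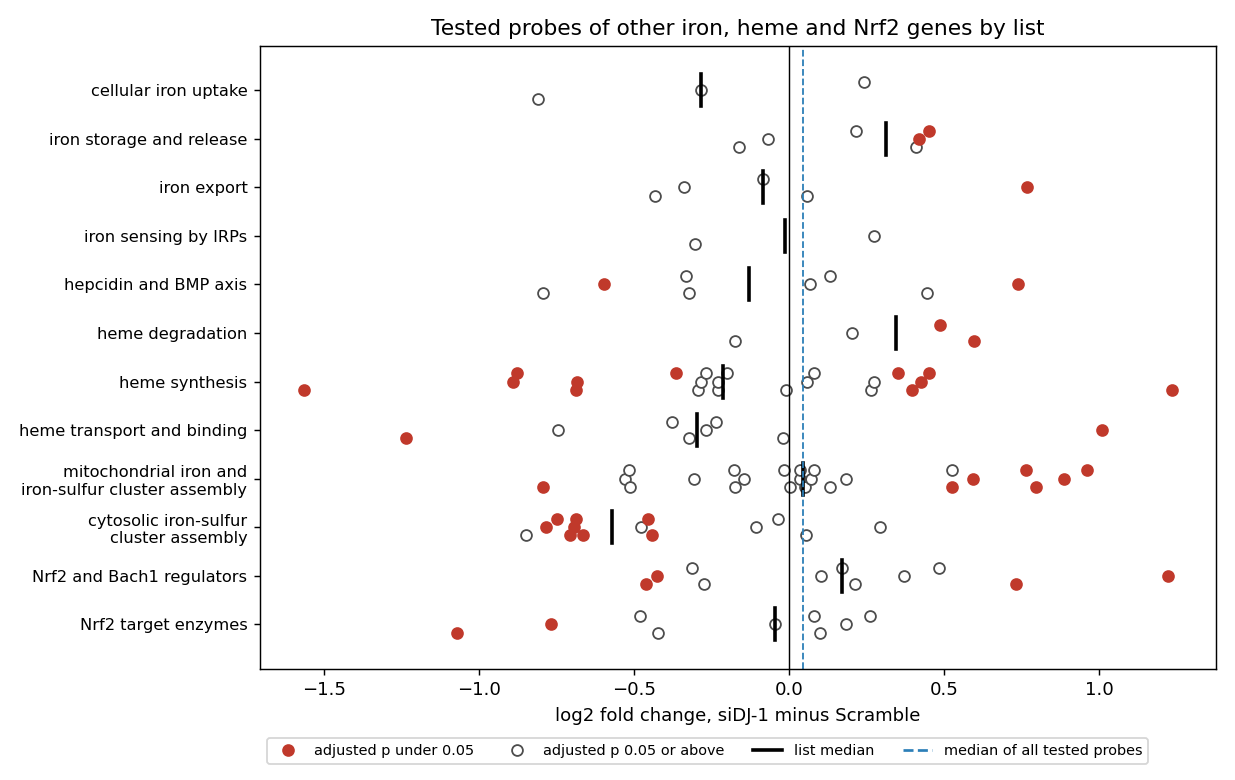
Log2 fold change, siDJ-1 minus Scramble (horizontal axis), of every tested probe of the other iron and heme genes and of the Nrf2 genes, by list; filled red circles have an adjusted p under 0.05, black bars are list medians and the dashed line is the median of all tested probes. The cytosolic iron-sulfur list has 8 called probes, all below 0, and the heme synthesis list has 5 called above 0 and 6 below.

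HMOX1, FTH1, FTL1 and BLVRB are known targets of Nrf2, a transcription factor that is held back by Keap1 and competes with the heme-sensing repressor Bach1. Of 11 tested probes of these regulators, 2 were called higher and 2 lower (36.4% called against 30.1% of all tested probes). NFE2L2, which encodes Nrf2, rose by 0.73 ± 0.13 (limma, adjusted p = 0.00918) and MAFF, a small Maf partner, by 1.22 ± 0.15 (adjusted p = 0.00374). KEAP1 fell on 2 of 4 tested probes, by 0.46 ± 0.10 and 0.42 ± 0.12 (adjusted p = 0.0180 and 0.0364), and its other 2 tested probes stood at -0.31 and -0.27. BACH1 stood at 0.37 ± 0.14 (adjusted p = 0.0849), and BACH2, MAFG, MAFK and NFE2L1 were between 0.10 and 0.48 and were not called either. NFE2L1 passed after a 75th percentile shift with and without background correction (0.36 and 0.30, adjusted p = 0.0494 and 0.0228) and with a trend in the prior variance (adjusted p = 0.0349). BACH1 passed without Scramble replicate 2 (0.48, adjusted p = 0.04705), BACH2 without Scramble replicate 1 (0.46, adjusted p = 0.0477) and KEAP1 ILMN_2621346 without Scramble replicate 3 (-0.43, adjusted p = 0.0491). Of 9 tested probes of other Nrf2 target enzymes, limma called 0 higher (1 before adjustment at the same threshold, and the methods' t-test called 0) and 2 lower, with a median of -0.04. The share called lower was 22.2%, against 13.6% of all tested probes. GCLC, the catalytic subunit of glutamate-cysteine ligase, fell by 0.77 ± 0.13 (adjusted p = 0.00760), and 1 of 3 tested probes of SRXN1, sulfiredoxin, fell by 1.07 ± 0.21 (ILMN_1229994, adjusted p = 0.0125) and was detected on 2 of 3 siDJ-1 arrays. The others were not called, ILMN_2677772 at -0.42 (adjusted p = 0.122) and ILMN_2667346 at -0.48 (adjusted p = 0.0976), and each passed with 1 array left out (without siDJ-1 replicate 2, adjusted p = 0.0280, and without Scramble replicate 1, adjusted p = 0.00841). NQO1, GCLM, TXNRD1, GSTA4 and G6PDX were not called, with log2 fold changes from -0.04 to 0.26.

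Of the 28 called probes named from these lists, 10 were called under every alternative that tested them. These were UROS ILMN_2452383 and ILMN_2498173, HSCB ILMN_2740652, FDXR, BOLA3, CIAPIN1, NUBP2, NFE2L2, MAFF and GCLC. Of 27 that could be tested without siDJ-1 replicate 1, 14 were not called (adjusted p from 0.0532 to 0.109), and of 27 without siDJ-1 replicate 3, 15 were not (0.0503 to 0.128). Both of these sets held PCBP2, CP, both called NEO1 probes, POR ILMN_1232447, UROD, PGRMC1, HEBP1, CYGB, HSCB ILMN_2611037, NDOR1 and both called KEAP1 probes, and the second also held UROS ILMN_2545953. Without siDJ-1 replicate 2, 4 were not called (CP, NEO1 ILMN_1215412, PGRMC1 and UROS ILMN_2545953; 0.0714 to 0.1005). Between 4 and 6 were not called without 1 of the Scramble arrays (adjusted p from 0.0547 to 0.09555). These were among PCBP2 ILMN_2843355, CP, NEO1 ILMN_1215412, POR ILMN_1232447, PGRMC1, UROS ILMN_2545953, HEBP1 and KEAP1 ILMN_1258406. The methods' t-test did not call 11 of the 28 (adjusted p from 0.0543 to 0.126), namely CP, NEO1 ILMN_1215412, CPOX, PGRMC1, UROS ILMN_2545953, HEBP1, CYGB, HSCB ILMN_2611037, NDOR1, KEAP1 ILMN_1258406 and SRXN1. With dim probes kept in the test 7 were not called (0.0510 to 0.0976), namely PCBP2 ILMN_2843355, CP, NEO1 ILMN_1215412, POR ILMN_1232447, PGRMC1, UROS ILMN_2545953 and KEAP1 ILMN_1258406. A 75th percentile shift after background correction lost NEO1 ILMN_1215412 and KEAP1 ILMN_1258406, a 75th percentile shift alone lost both called NEO1 probes, and a trend in the prior variance lost NEO1 ILMN_1253848 and POR ILMN_2629266. The leave-one-out omissions lowered the count over all tested probes from 5387 to 2444 without siDJ-1 replicate 1 and to 2612 without siDJ-1 replicate 3.

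The size of many of these changes rests on the background step. With quantile normalization and no background correction, the log2 fold change was -0.28 for GCLC, -0.37 for SRXN1 and 0.27 for CP. UROS stood at -1.01, -0.39 and -0.29 in the order above, HSCB at 0.58 and 0.33, CIAPIN1 at -0.43, NUBP2 at -0.49, NDOR1 at -0.36 and MAFF at 0.80, and all of these were called. The 2 NEO1 probes called above (0.25 for ILMN_1215412) and POR ILMN_2629266 were not called there. CPOX and CYGB, with no fold given above, were also called there. The other named called probes moved by less than 1.5 times on the log2 scale.

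The 5 tested probes with the profile most like that of BLVRB ILMN_2770917 over the 6 arrays were those of MAPK1IP1, GNAO1, 2900057K09RIK (Rnf169 in RefSeq), SRGAP2 and JCAM2. Their Pearson correlations with it were between 0.999 and 1.00, and the log2 fold changes of the first 4 were between 0.85 and 0.99, or between 0.51 and 0.78 with no background correction. JCAM2 was not well above background on any Scramble array, so no fold is given for it. The 6 arrays form 2 groups, so these correlations mostly restate a shared difference between groups and are given as a description.

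Markers and array quality also differed between the groups. Of 24 tested probes of the myotube markers, 13 were called lower and 2 higher, with a median of -0.54. The shares were 54.2% lower and 8.33% higher, against 13.6% and 16.5% of all tested probes. The summed normalized signal of their 31 probes was 184476, 174914 and 173223 on the Scramble arrays against 138089, 146310 and 125153 on the siDJ-1 arrays, 76.9% of the Scramble mean, and the brightest was ACTA1, skeletal actin. Of other cell types, macrophage markers had 3 of 15 probes tested and summed to 566, 663 and 594 against 540, 569 and 510; their brightest probe was of CD14, and Csf1r, Itgam, Lyz2 and Ptprc were not detected on any array. Among them the probe annotated LYZ was called lower (limma, adjusted p = 0.0162), and it is named after its value was seen. The probes annotated LYZS, like that of LYZ2, were not detected on any array. LYZ was detected on 1 of 3 siDJ-1 arrays, so no fold is given. It was not called without siDJ-1 replicate 1 or 3 or by the methods' t-test (adjusted p up to 0.0618, in a range from 0.00611 over its alternatives). The CD14 probe was not called (-0.59, limma, adjusted p = 0.0626). The CD68 probe lay higher and was not called (limma, adjusted p = 0.169), with detection on 1 of 3 Scramble arrays and no fold given. Red cell (16 probes), hepatocyte (7) and adipocyte (5) markers had 0 probes tested, and endothelial markers had 1 of 9, of ENG, at 0.01. The number of detected probes was 16985, 17399 and 18179 on the Scramble arrays against 18704, 18857 and 18408 on the siDJ-1 arrays, and the standard error over beads had a median of 11.3, 8.30 and 8.66 against 7.17, 6.36 and 5.88. The part of the myotube markers, of detection and of bead noise in the changes of TFRC, FTL1, HMOX1, BLVRB and the lists was not tested.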

How the data were processed

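Total RNA of 6 C2C12 myotube samples was measured on 1 Illumina Mouse WG-6 V2 chip. The deposited values were probe intensity with no normalization and no background subtraction, as exported by the authors' GenomeStudio software, with a detection p-value, a bead count and a standard error over beads per probe, all per the file headers. Probes kept the deposited symbol; 14 of the 17 member probes also matched RefSeq (GRCm38.p6) by gene number or accession, and the other 3 rest on the deposited symbol alone. Groups and replicate numbers came from the labels.

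Intensities were background corrected from the detection p-values, quantile normalized and log2 transformed with an offset of 16 (neqc in limma 3.58.1, R 4.3.3). Probes detected (p under 0.05) on 3 or more arrays were tested with lmFit and eBayes, and p-values were adjusted over all tested probes (Benjamini-Hochberg, threshold 0.05). Each probe was fitted separately. The scripts were tested on simulated data. With 3 arrays a group, their number limits the precision.

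The members and lists were chosen with earlier results of these data known. Named were every member probe, Park7, up to 3 called probes with the largest rise and up to 3 with the largest fall in each list, tested probes of the Nrf2 lists and the 5 probes most correlated with the called member probe of the largest change. Lists covered iron uptake, storage, export, sensing, hepcidin signalling, heme degradation, synthesis and transport, iron-sulfur cluster assembly, Nrf2 genes and cell type markers. Alternatives were other background corrections and normalizations, filters, a variance trend, the methods' t-test (unpaired and not moderated, named by the study for other assays), a replicate block, each array left out, and the mean of the probes of a gene.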

Additional observations from a re-analysis of the deposited data

How the results depend on the processing

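Against 5387 called probes of 17890, the count was 3519 of 45281 with no filter on dim probes and ran from 2444 to 5302 when 1 array was left out; the first tests more probes and the second uses fewer arrays. It was 6292 and 6291 with no background correction (quantile normalization and 75th percentile shift) and 6470 with a trend in the prior variance. The iron and heme handling probes called numbered 6, between 4 and 8 with 1 array left out, and 5 of 10 genes by the mean of each gene's probes, where ACO1 passed (adjusted p = 0.0468). Of the wider iron and heme lists, 35 probes were called, against 22 with no filter, 23 by the methods' t-test, 40 and 40 with no background correction, 43 with a trend in the prior variance, 20 of 57 gene symbols by the mean of their probes, and from 12 to 30 with 1 array left out. Park7 was lower under all 15 alternatives, with log2 fold changes from -1.24 to -1.003.

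Of 220 values of the member probes under alternatives, 198 kept their direction and side of the threshold. Values that turned sign belonged to probes that were not called. FTH1 ILMN_2876071 was at 0.24 and 0.18 after a 75th percentile shift with and without background correction. With 1 array left out, the log2 fold change ran from -0.032 to 0.011 for FTH1 ILMN_2876071, from -0.046 to 0.21 for SLC40A1, from -0.014 to 0.092 for SLC11A2 ILMN_1243129 and from -0.046 to 0.24 for SLC11A2 ILMN_2665063. It ran from -0.036 to 0.46 for BACH2, from -0.17 to 0.31 for G6PDX, from -0.18 to 0.15 for GCLM and from -0.021 to 0.27 for NQO1. The cause was not tested. The median of the 16 member probes moved from 0.07 to 0.26 with a 75th percentile shift after background correction, while that of all tested probes moved from 0.05 to 0.07.

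Both groups carry replicate numbers 1 to 3. Same-numbered arrays deviated from their group means with correlations of 0.0537, 0.0474 and 0.0199, none above 0.1, so the numbers were not taken as pairs, although every array correlated best with its own number. With a replicate block, 4350 probes were called in all, 7 of the member probes (ACO1 passed, adjusted p = 0.0440) and 27 of the wider lists, 5 of the 28 named called probes were lost (CP, both called POR probes, PGRMC1 and UROS ILMN_2545953), MAFK passed (adjusted p = 0.0484), and the Park7 log2 fold change was -1.16. Dim probes such as ACO1, IREB2 ILMN_3161612, CPOX, CYGB, GCLC and SRXN1 ILMN_1229994 lie close to background, and the size of their change depends on how background was removed. HMOX1 was brighter, with signals from 342 to 471 and detection on every array. The size of its change also depended on this step (0.30 to 0.47 under the other background corrections and normalizations).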
